A study of Rattus norvegicus with 11 samples.

Results

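The genes described here are 9 genes with which astrocytes move water, ions and transmitter and keep the surroundings of neurons stable: Aqp4, Gja1, Gjb6, Kcnj10, Slc1a2, Slc1a3, Glul, Slc4a4 and Aldh1l1. They were taken by symbol from the 30560 genes of the table, each symbol matched 1 gene, and all 9 passed the filter on low counts that left 15742 genes for testing. RNA of the striatum was sequenced on day 3 from 11 adult male Sprague-Dawley rats, 1 library per rat. Common intracerebral hemorrhage (IC, n = 3) was induced with 0.2 U of collagenase VII-S in 1.0 μL saline and severe hemorrhage (IS, n = 3) with 0.6 U in 3.0 μL, each injected into the right striatum. In IS-HA (n = 3) the IS dose was followed at 6 h by aspiration of the hematoma, and the Normal rats (n = 2) had neither injection nor aspiration, so that no group received saline or a needle alone. The injected rats gave ipsilateral striatum and the Normal rats the matching region, and the labels number the rats 1 and 3 in Normal, 2 to 4 in IC and in IS, and 1 to 3 in IS-HA. Levels are given as TPM, which are scaled for library and gene length, and differences as log2 fold changes with their standard errors (SE) from edgeR's quasi-likelihood test on the counts, where a gene is called at a Benjamini-Hochberg adjusted p under 0.05.

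Astrocytes take up the potassium and glutamate that active neurons release. Kcnj10 is the inward rectifier channel Kir4.1 through which potassium enters, Slc1a2 (GLT-1) and Slc1a3 (GLAST) are the glutamate transporters, and Glul is glutamine synthetase, which turns glutamate into glutamine for return to neurons. Aqp4 is the water channel of the endfeet on blood vessels, Gja1 (connexin 43) and Gjb6 (connexin 30) form the gap junctions that join astrocytes into a network, Slc4a4 (NBCe1) carries sodium with bicarbonate and buffers pH, and Aldh1l1 is a folate enzyme that is widely used to mark astrocytes.

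The 9 genes did not all change alike against Normal, although 8 of them had a negative log2 fold change in IS. In IS, Slc1a2 was 13.4-fold, Slc4a4 9.57-fold and Kcnj10 3.17-fold lower than in Normal, Glul was 2.13-fold higher, and all 4 were called, whereas Slc1a3, Gja1, Aqp4, Aldh1l1 and Gjb6 were not. Of these calls, Slc1a2 and Kcnj10 lower and Glul higher were also made for IS-HA against Normal, and Slc1a2 and Glul were called for IC against Normal. Of all genes tested, 24.2% were called lower and 24.8% higher in IS, 12.1% and 19.5% in IS-HA, and 4.64% and 13.0% in IC. These 3 comparisons share the same 2 Normal rats. Between the injured groups no member was called by edgeR's test. The lower levels of Slc1a2, Slc4a4 and Kcnj10 in IS than in IC were called by DESeq2, which called 3.41% of its genes lower there.

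**Figure D1:**
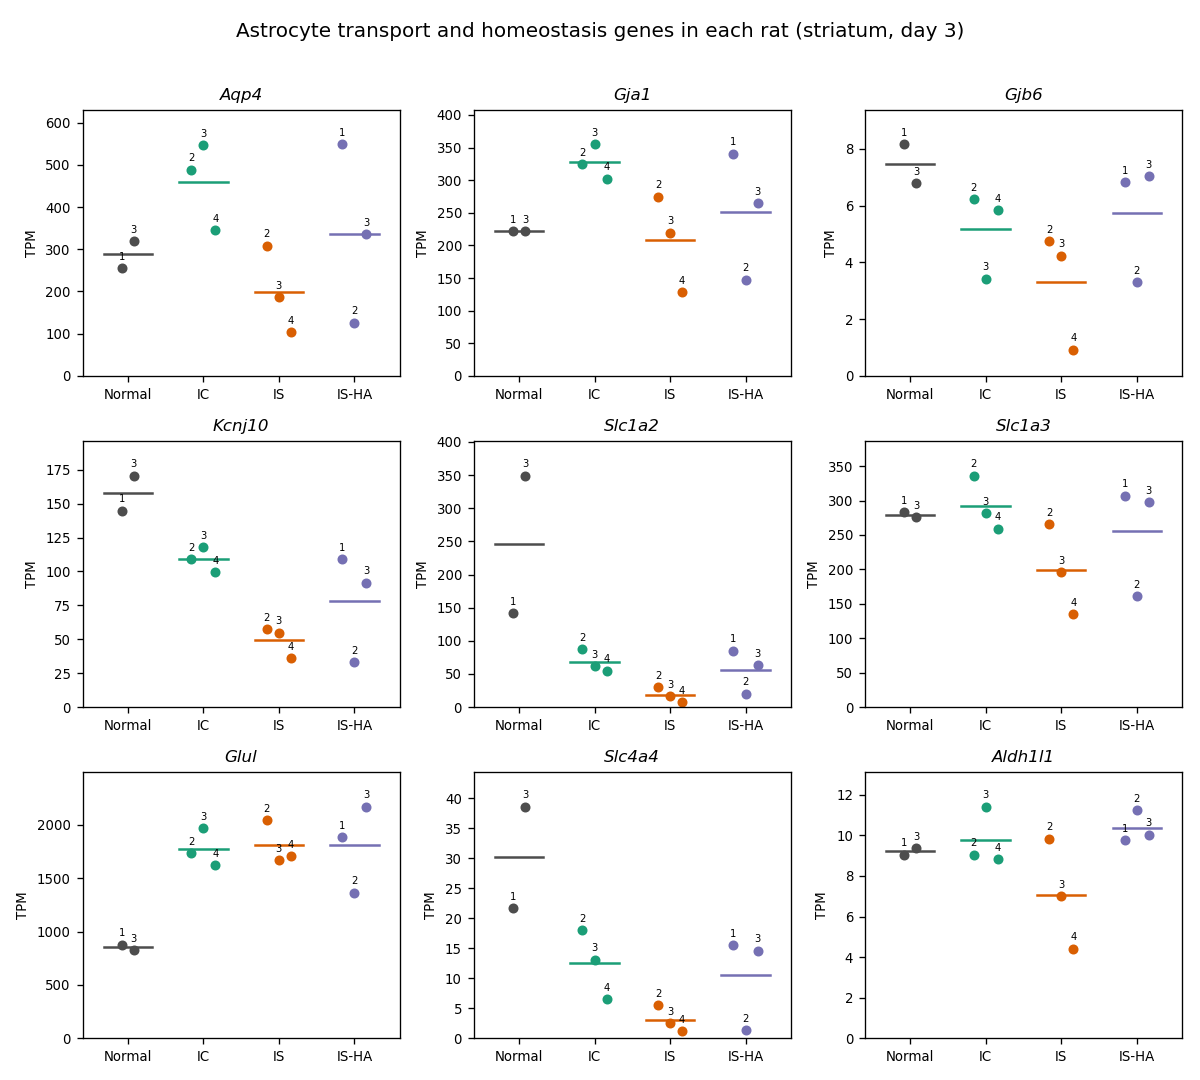
TPM of the 9 genes in each rat on a linear axis from 0, 1 panel per gene, with a point per rat labelled by its replicate number and a line at the group mean (n = 2 in Normal and n = 3 in the other groups). Slc1a2 and Slc4a4 lie highest in the Normal rats and lowest in the IS rats, all 9 injected rats lie above both Normal rats for Glul, and IS-HA replicate 2 lies with the IS rats for most genes.

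The total counts assigned to genes ran from 6701301 in IS-HA replicate 2 to 18817645 in IC replicate 3. The lowest count of any member was 18, for Slc4a4 in IS replicate 4, which is above the 3 counts taken as the floor of detection, a limit that covers counting error only. Because IS-HA replicate 2 was the smallest library and gave the lowest TPM of its group for 8 of the 9 members, results are also given without it. As it was left out partly for its low member levels, its removal raises the IS-HA means of those members by construction, and calls made without it are a description. TPM and library-scaled counts (CPM) were not proportional in it to the same degree, since 1 TPM of Aqp4 stood for 3.18 CPM in this rat and for 2.44 to 2.91 CPM in the other 10. All 12 genes of a list of other astrocyte genes and all 12 of a neuron list had counts in every rat. In bulk tissue, fewer astrocytes and less RNA per astrocyte cannot be told apart.

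The 3 genes called against Normal in both IS and IS-HA, Slc1a2, Kcnj10 and Glul, are shown with the 250 bases before each start site that RefSeq lists on the rat assembly GRCr8, so that the promoters of the genes that fell and of the gene that rose can be read side by side. The counts were made on the build mRatBN7.2, so these coordinates do not apply to the count table. Capitals mark matches, on either strand, to a nuclear factor I (NFI) site of 5 letters (TTGGC or GCCAA) or a SOX motif (ACAAAG or CTTTGT), after 2 factor families known from astrocyte development.
Slc1a2, first start, chr3:109459859-109460108, plus strand: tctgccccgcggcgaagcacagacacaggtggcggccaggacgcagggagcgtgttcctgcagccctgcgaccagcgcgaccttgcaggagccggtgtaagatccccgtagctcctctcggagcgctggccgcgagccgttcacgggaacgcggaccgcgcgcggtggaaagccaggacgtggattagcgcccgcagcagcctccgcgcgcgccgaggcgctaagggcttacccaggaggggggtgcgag
Slc1a2, second start, chr3:109507697-109507946, plus strand: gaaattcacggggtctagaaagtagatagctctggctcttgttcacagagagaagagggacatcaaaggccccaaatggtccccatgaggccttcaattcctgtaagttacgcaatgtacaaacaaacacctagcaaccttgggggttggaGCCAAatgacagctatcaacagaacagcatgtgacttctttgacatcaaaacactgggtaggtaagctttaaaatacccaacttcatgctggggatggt
Kcnj10, chr13:87334260-87334509, plus strand: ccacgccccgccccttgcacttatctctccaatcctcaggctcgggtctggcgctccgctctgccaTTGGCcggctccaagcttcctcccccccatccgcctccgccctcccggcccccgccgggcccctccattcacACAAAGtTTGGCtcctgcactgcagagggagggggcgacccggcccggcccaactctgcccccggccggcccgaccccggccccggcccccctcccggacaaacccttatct
Glul, first start, chr13:68519250-68519499, plus strand: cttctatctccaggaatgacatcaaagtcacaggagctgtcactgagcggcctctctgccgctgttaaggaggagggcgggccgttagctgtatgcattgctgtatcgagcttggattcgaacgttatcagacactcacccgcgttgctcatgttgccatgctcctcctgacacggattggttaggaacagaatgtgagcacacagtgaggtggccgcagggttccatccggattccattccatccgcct
Glul, second start, chr13:68575816-68576065, plus strand: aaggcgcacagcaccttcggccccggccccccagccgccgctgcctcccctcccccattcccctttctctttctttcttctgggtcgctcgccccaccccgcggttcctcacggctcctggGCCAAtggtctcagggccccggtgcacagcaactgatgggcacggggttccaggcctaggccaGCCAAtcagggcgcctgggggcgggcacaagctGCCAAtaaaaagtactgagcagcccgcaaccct

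The NFI letters stood in the second window of Slc1a2, 3 times in the second window of Glul and 2 times in that of Kcnj10, where a SOX motif lay just before one of them. Over all 33469 windows of the table, 40.3% held them, against 8 of the 15 windows of the 9 members, and 16.3% held the SOX motif, against 6 of the 15. These windows are not independent, as the 3 windows of Slc1a3 overlap and hold the same NFI and SOX sites. Counted by gene, 42.3% of all genes held the NFI letters in any window, against 6 of the 9 members. The SOX motif was held by 17.2% of all genes and by 4 of the 9. The AP-1 motif TGANTCA was found in 1 member window, that of Gja1, and in 6.34% of all windows. TTCNNNGAA, the letters of a STAT site, was found in 0 of the 15 and in 7.67% of all. These matches describe the letters of the windows, and genes that fell (Slc1a2, Kcnj10) and the gene that rose (Glul) both held the NFI letters.

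The 2 glutamate transporters differed in how they changed. Slc1a2 stood at 142 and 349 TPM in Normal replicates 1 and 3, at 87.4, 61.7 and 55.2 TPM in IC replicates 2, 3 and 4, at 30.1, 16.7 and 7.71 TPM in IS replicates 2, 3 and 4, and at 85.2, 20.5 and 63.1 TPM in IS-HA replicates 1, 2 and 3. Both Normal rats lay above all 9 injected rats, all 3 IS rats lay below all 3 IC rats, and IS-HA replicate 2 lay among the IS rats while the other 2 lay within the IC range. With so few rats such separation is common. In TMM-scaled CPM, 36.9% of all genes tested had every IS rat below both Normal rats. The share was 31.3% for IC and 29.2% for IS-HA, and 18.7% had every IS rat below every IC rat. The log2 fold change against Normal was -1.89 (SE 0.53) in IC, with an adjusted p of 0.0322 by edgeR, -3.74 (SE 0.56, adjusted p 0.000501) in IS and -2.18 (SE 0.53, adjusted p 0.0114) in IS-HA. The 2 Normal rats themselves differed 2.46-fold in Slc1a2. Without Normal replicate 3, the higher of them, the edgeR values were -1.19 (adjusted p 0.337) in IC, -3.05 (adjusted p 0.00706) in IS and -1.48 (adjusted p 0.145) in IS-HA, so that only the IS call was left. The IC call was also lost without IC replicate 3 (-1.79, adjusted p 0.117) and without IC replicate 4 (-1.81, adjusted p 0.101), with library size as the only scaling and with limma on TPM.

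Slc1a3, the other transporter, had a mean of 279 ± 4.76 TPM in Normal (SD, n = 2), 292 ± 39.6 TPM in IC, 199 ± 65.2 TPM in IS and 255 ± 81.8 TPM in IS-HA (SD, n = 3 each), and neighbouring groups in the order of these means overlapped in their ranges. Its log2 fold change against Normal was 0.00 (SE 0.25) in IC, -0.49 (SE 0.25) in IS and -0.18 (SE 0.25) in IS-HA, with edgeR adjusted p of 0.993, 0.120 and 0.593. The direction in IC turned under DESeq2's size factors and other alternatives, and the IS value was called without IS replicate 2 (-0.70, adjusted p 0.0492). The ratio of Slc1a2 to Slc1a3 in TPM put the 2 transporters against each other within each rat. It was 0.502 and 1.27 in the Normal rats, 0.213 to 0.260 in IC, 0.0570 to 0.113 in IS, and 0.277, 0.127 and 0.212 in IS-HA replicates 1, 2 and 3. All 9 injected rats lay below both Normal rats, with a mean log2 ratio of -2.70 ± 0.794 (SD, n = 9) against -0.327 ± 0.943 (SD, n = 2), a difference of -2.37 (two-sided exact permutation p = 0.0182, adjusted over the 4 ratios tested 0.0242, the smallest p that 55 splits allow being 0.0182). Slc1a2 alone already put all 9 injected rats below both Normal rats, so this test is not independent of the level of Slc1a2. All 3 IS rats also lay below all 3 IC rats and all 3 IS-HA rats in the ratio, and with 3 rats against 3 the exact test cannot go below 0.1, the value it gave for both.

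Glul rose in all 3 injured groups. Its level was 877 and 826 TPM in Normal replicates 1 and 3, 1733, 1969 and 1621 TPM in IC replicates 2, 3 and 4, 2047, 1669 and 1707 TPM in IS replicates 2, 3 and 4, and 1887, 1365 and 2170 TPM in IS-HA replicates 1, 2 and 3. All 9 injected rats lay above both Normal rats, and the 3 injured groups overlapped. In TMM-scaled CPM, 32.4% of all genes tested lay wholly above Normal in IC, 37.6% in IS and 31.7% in IS-HA. The log2 fold changes against Normal of 1.00 (SE 0.20) in IC, 1.09 (SE 0.20) in IS and 1.05 (SE 0.20) in IS-HA had edgeR adjusted p of 0.00618, 0.00148 and 0.00336. Without Normal replicate 3 they were 0.89, 0.99 and 0.94, with adjusted p of 0.107, 0.0291 and 0.0590, so that only the IS call was left. Between IS and IC the log2 difference was 0.10 (SE 0.17). The ratio of Glul to Slc1a2 ran from 2.36 to 6.18 in Normal, 19.8 to 31.9 in IC, 68.1 to 221 in IS and 22.2 to 66.7 in IS-HA, with a difference in mean log2 ratio of 3.66 between the 9 injected and the 2 Normal rats (two-sided exact permutation p = 0.0182, adjusted over the 4 ratios 0.0242). All 9 injected rats lay above both Normal rats for Glul and below both for Slc1a2. This ratio was therefore bound to separate them, and its test adds no evidence beyond the levels of the 2 genes.

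**Figure D2:**
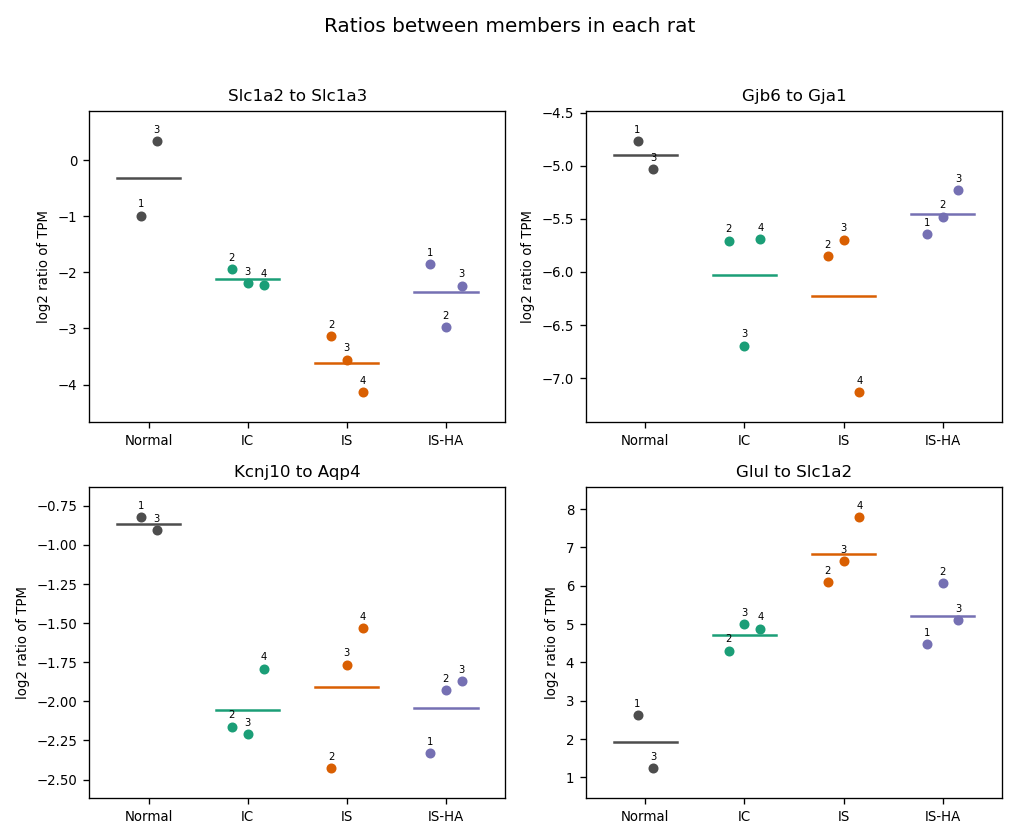
Log2 ratio of TPM between 2 members in each rat, 1 panel per ratio, with a point per rat labelled by its replicate number and a line at the group mean. For Slc1a2 to Slc1a3, for Gjb6 to Gja1 and for Kcnj10 to Aqp4 all 9 injected rats lie below both Normal rats, and for Glul to Slc1a2 all 9 lie above them.

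Kcnj10 fell in IS and in IS-HA. It stood at 145 and 171 TPM in Normal replicates 1 and 3, at 109, 118 and 99.7 TPM in IC replicates 2, 3 and 4, at 57.3, 54.9 and 35.9 TPM in IS replicates 2, 3 and 4, and at 109, 33.1 and 91.8 TPM in IS-HA replicates 1, 2 and 3. The Normal, IC and IS rats did not overlap, IS-HA replicate 2 lay below all 3 IS rats in TPM, and the other 2 IS-HA rats lay near the IC rats. In CPM, 31.3% of all genes tested lay wholly lower in IC than in Normal, and 18.7% in IS than in IC. The log2 fold change against Normal was -0.59 (SE 0.31) in IC, -1.67 (SE 0.32) in IS and -1.09 (SE 0.31) in IS-HA, with edgeR adjusted p of 0.209, 0.00185 and 0.0246. The IS-HA value missed the threshold without Normal replicate 1 (-1.14, adjusted p 0.0782) and without Normal replicate 3 (-1.03, adjusted p 0.134), and settings that also lost it included library size as the only scaling, limma on TPM and a fit of only the 2 groups. Without IS-HA replicate 2, the IC value of -0.59 was called, with an SE of 0.17 and an adjusted p of 0.0262. That rat is in neither group and enters only the shared estimate of spread. Without it, edgeR called 2240 of 15897 genes lower in IC, beside 730 of 15742 with it.

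Aqp4, the endfoot water channel, stood at 256 and 320 TPM in Normal replicates 1 and 3, at 488, 546 and 345 TPM in IC replicates 2, 3 and 4, at 308, 187 and 104 TPM in IS replicates 2, 3 and 4, and at 548, 126 and 336 TPM in IS-HA replicates 1, 2 and 3. All 3 IC rats lay above both Normal rats, as they did for 32.4% of all genes tested in CPM, and above all 3 IS rats. The IS-HA rats spanned from the IS range to above the IC range. No comparison with Normal was called, with log2 fold changes of 0.61 (SE 0.47) in IC, -0.54 (SE 0.46) in IS and 0.15 (SE 0.46) in IS-HA and edgeR adjusted p of 0.381, 0.347 and 0.815. A fit of the IC and Normal rats alone called Aqp4 higher in IC (adjusted p 0.0438). That fit called 2994 of 15790 genes higher, beside 2040 of 15742 in the fit over all groups. The signs of Aqp4 in IS and IS-HA turned under alternatives. The ratio of Kcnj10 to Aqp4 was 0.565 and 0.534 in the Normal rats and between 0.186 and 0.346 in the 9 injected rats, a difference of -1.14 in mean log2 ratio (two-sided exact permutation p = 0.0182, adjusted over the 4 ratios 0.0242). Kcnj10 alone already put all 9 injected rats below both Normal rats, so this test is not independent of the level of Kcnj10. The ratio did not separate IS from IC (exact permutation p = 0.7) or IS-HA from IS (p = 0.6).

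The 2 gap junction genes differed in level and in their fold changes. Gja1 was at 222 TPM in both Normal rats, at 302 to 355 TPM in IC, 129 to 275 TPM in IS and 148 to 341 TPM in IS-HA, and its log2 fold changes against Normal of 0.50 (SE 0.29), -0.10 (SE 0.28) and 0.12 (SE 0.28) in IC, IS and IS-HA had edgeR adjusted p of 0.240, 0.784 and 0.756. A fit of the IC and Normal rats alone called Gja1 higher in IC (adjusted p 0.0417), as it did 2994 of 15790 genes. The sign of Gja1 in IS turned under library size scaling and that in IS-HA turned without IS-HA replicate 1. Gjb6 stood much lower, at 8.15 and 6.79 TPM in Normal replicates 1 and 3, at 6.21, 3.43 and 5.84 TPM in IC replicates 2, 3 and 4, at 4.76, 4.23 and 0.920 TPM in IS replicates 2, 3 and 4, and at 6.81, 3.31 and 7.04 TPM in IS-HA replicates 1, 2 and 3. In TPM all IC and IS rats lay below both Normal rats and IS-HA replicates 1 and 3 lay between them, while in TMM-scaled CPM all 3 IS-HA rats lay below both as well. In that CPM, 31.3% of all genes tested lay wholly below Normal in IC, 36.9% in IS and 29.2% in IS-HA. The log2 fold change of Gjb6 was -0.59 (SE 0.50) in IC, -1.19 (SE 0.50) in IS and -0.44 (SE 0.50) in IS-HA, with edgeR adjusted p of 0.430, 0.0690 and 0.508, and the IS value was called by DESeq2 (adjusted p 0.0415), which called 26.8% of its genes lower there. The ratio of Gjb6 to Gja1 was 0.0367 and 0.0306 in Normal and 0.00714 to 0.0266 in the 9 injected rats, a difference of -1.004 in mean log2 ratio (two-sided exact permutation p = 0.0364, which is also its value adjusted over the 4 ratios). Without IC replicate 3 this difference was -0.90 with an exact p of 0.133.

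Slc4a4, the bicarbonate carrier, stood at 21.7 and 38.6 TPM in Normal replicates 1 and 3, at 18.0, 13.1 and 6.54 TPM in IC replicates 2, 3 and 4, at 5.56, 2.53 and 1.24 TPM in IS replicates 2, 3 and 4, and at 15.5, 1.37 and 14.6 TPM in IS-HA replicates 1, 2 and 3. The Normal, IC and IS rats did not overlap, and IS-HA replicate 2 again lay within the IS range. In CPM, 31.3% of all genes tested lay wholly lower in IC than in Normal, and 18.7% in IS than in IC. The Slc4a4 values rest on 676 and 1176 counts in Normal and on 18 to 111 counts in IS. The log2 fold change against Normal was -1.32 (SE 0.69) in IC, -3.26 (SE 0.74) in IS and -1.60 (SE 0.70) in IS-HA, with edgeR adjusted p of 0.199, 0.00473 and 0.0997. Without IS-HA replicate 2, which is in neither group, the IC value was -1.32 and was called (adjusted p 0.0393). In that fit edgeR called 2240 of 15897 genes lower in IC, beside 730 of 15742 with all rats.

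Aldh1l1 was at 9.04 and 9.38 TPM in Normal, 8.82 to 11.4 TPM in IC, 4.41 to 9.83 TPM in IS and 9.75 to 11.2 TPM in IS-HA, and the ranges of neighbouring groups overlapped. Its log2 fold changes against Normal of 0.02 (SE 0.28) in IC, -0.38 (SE 0.28) in IS and 0.17 (SE 0.28) in IS-HA were not called, and the first and last of these turned sign under alternatives.

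Read against all genes tested, the calls among the 9 members were as follows. For IC against Normal, 1 member was called lower where 4.64% of all genes were, and 1 higher where 13.0% were. For IS against Normal, 3 were called lower (24.2% of all genes) and 1 higher (24.8%). For IS-HA against Normal, 2 were called lower (12.1%) and 1 higher (19.5%). With so many genes called, 3 of 9 lower in IS is near the background share, and the median log2 fold change of the 9 in IS was -0.54, beside 0.02 over all genes tested. Over the alternatives, this median ran from -0.93 without IS replicate 2 to -0.15 with the correction for gene length, beside 0.03 over all genes there. It was -0.315 without IS replicate 4 and -0.39 with library size as the only scaling.

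**Figure D3:**
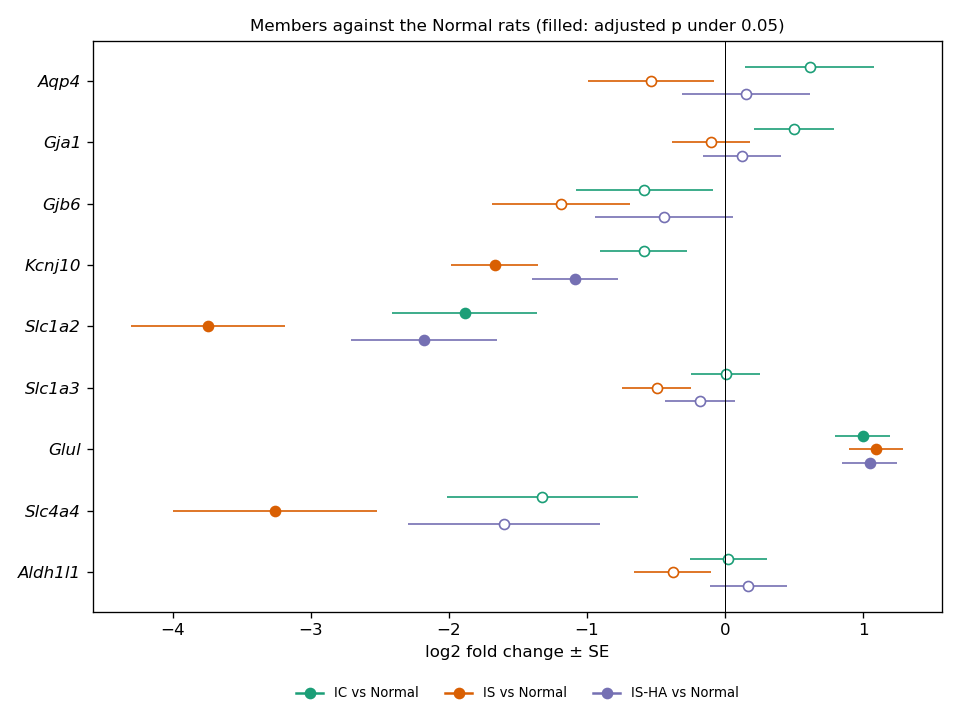
Log2 fold change of each member against the 2 Normal rats, with bars of 1 SE, for IC, IS and IS-HA, where filled points have an edgeR adjusted p under 0.05. The 3 fold changes of Glul lie close together at about 1.00 to 1.09, and those of Slc1a2, Slc4a4 and Kcnj10 lie farthest below 0 in IS.

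The comparison of IS with IC asks whether the larger hemorrhage changed these genes further. No member was called by edgeR, as 0.0% of all genes were called lower and 0.0% higher, while 6 of the 9 had an unadjusted p under 0.05 (Slc1a2, Kcnj10, Slc4a4, Aqp4, Gja1 and Slc1a3, each lower in IS), beside 1845 genes lower and 1653 higher among the 15742. The log2 differences were -1.94 (SE 0.68, adjusted p 0.170) for Slc4a4, -1.86 (SE 0.50, adjusted p 0.147) for Slc1a2, -1.15 (SE 0.42, adjusted p 0.175) for Aqp4 and -1.08 (SE 0.29, adjusted p 0.147) for Kcnj10. In TMM-scaled CPM, all 3 IS rats lay below all 3 IC rats for those 6 members, where 18.7% of all genes tested did so. DESeq2 called Slc4a4 (adjusted p 0.0491), Slc1a2 (0.0116) and Kcnj10 (0.0183), in a comparison where it called 3.41% of its genes lower, and limma voom called Slc1a2, Kcnj10 and Aqp4, where it called 5.7% of all genes lower. Without IS-HA replicate 2, which is in neither group but enters the shared estimate of spread, edgeR called Slc4a4, Slc1a2, Aqp4 and Kcnj10, with adjusted p of 0.0285, 0.0270, 0.0418 and 0.0208 and 7.71% of all genes called lower. With any other single rat left out, edgeR called no member. Without IS replicate 4, the lowest IS rat for these genes, the differences in the same order were -1.60, -1.53, -0.87 and -0.93. Their edgeR adjusted p were 0.487, 0.448, 0.490 and 0.448.

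The comparison of IS-HA with IS asks what aspiration changed. Of the 9 members, 8 had a mean above that of IS, none was called by edgeR or DESeq2, and 2 (Slc1a2 and Slc4a4) had an unadjusted p under 0.05 by each tool, as 5.58% of all genes did in this direction by edgeR. Slc1a2 and Kcnj10 were called higher by limma voom, which called 1.69% of all genes higher. Over all genes edgeR called 0.00635% higher and 0.0% lower. The log2 differences were 1.66 (SE 0.68, adjusted p 0.550) for Slc4a4, 1.57 (SE 0.50, adjusted p 0.540) for Slc1a2 and 0.58 (SE 0.29, adjusted p 0.563) for Kcnj10. The ranges of the 2 groups overlapped in CPM for all 9 members, where 4.96% of all genes had all 3 IS-HA rats above all 3 IS rats. Without IS-HA replicate 2, the differences were 2.12 for Slc4a4, 1.902 for Slc1a2 and 0.88 for Kcnj10, with edgeR adjusted p of 0.0414, 0.0450 and 0.0376, and 3.4% of all genes were then called higher. Without IS-HA replicate 1 they were 1.29, 1.18 and 0.31 (adjusted p 0.913, 0.913 and 0.921), and without IS replicate 4, the lowest IS rat for these genes, 1.33, 1.24 and 0.43 (adjusted p 0.999 each). The 3 genes were called by edgeR only without IS-HA replicate 2 among the 11 rats left out in turn, so the calls turn on 1 library, which was left out partly for its low levels of them.

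**Figure D4:**
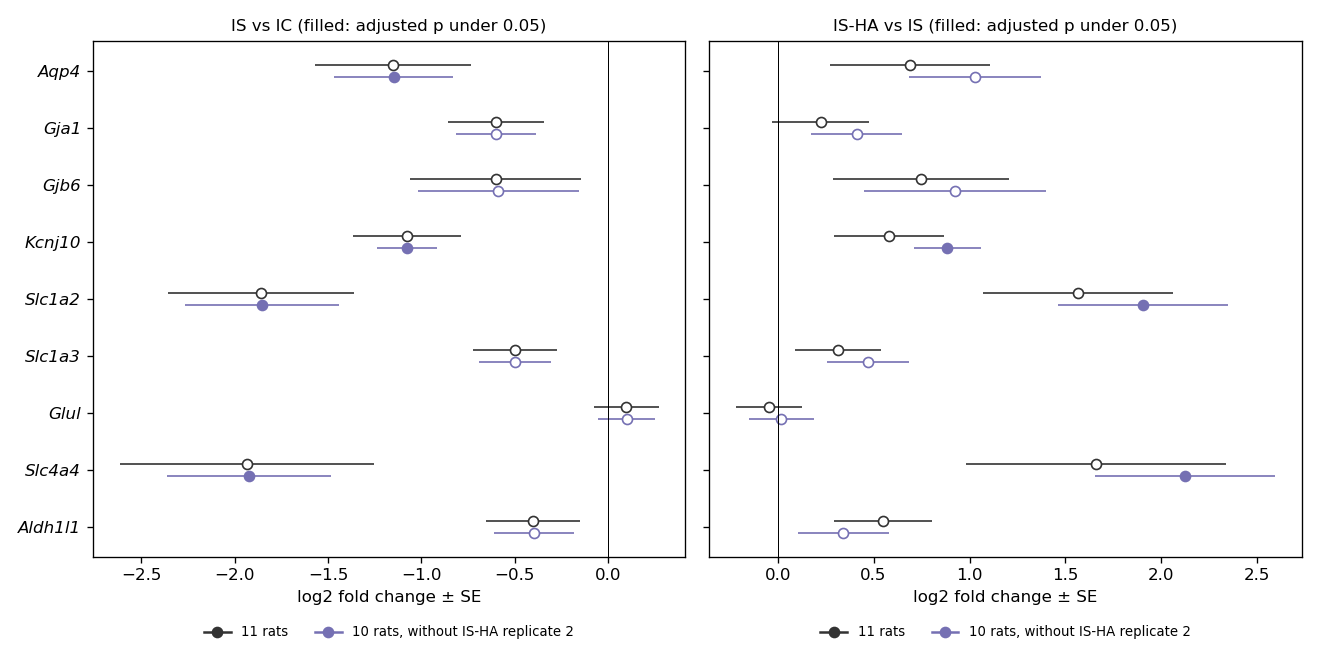
Log2 difference of each member between IS and IC (left) and between IS-HA and IS (right), with bars of 1 SE, from the fit on all 11 rats and on 10 rats without IS-HA replicate 2, where filled points have an edgeR adjusted p under 0.05. No point is filled with 11 rats, and without that rat, which was left out partly for its low member levels, 4 members are filled on the left and 3 on the right.

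Other transporters and enzymes of astrocytes were also called in both directions. In a list of 22, 8 were called lower and 2 higher in IS than in Normal by edgeR, beside 24.2% lower and 24.8% higher of all genes, with a median log2 fold change of -0.51 beside 0.02. Among the lowest were Slc6a11 (GAT-3, -3.09, adjusted p 0.00203), a GABA transporter of astrocytes, and Slco1c1 (-1.84, adjusted p 0.000891), which carries thyroid hormone. The 2 highest were the urea transporter Slc14a1 (1.31, adjusted p 0.00145) and Fxyd1 (1.25, adjusted p 0.0215), a small subunit that modulates the sodium pump. Slc6a11, like Slc1a2, was lowest in IS, with a mean of 4.82 ± 1.75 TPM (SD, n = 3) beside 41.6 ± 11.1 TPM in Normal (SD, n = 2).

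Among 9 genes of the endfoot scaffold and membrane that hold or accompany Aqp4 and Kcnj10, 3 were called lower and 1 higher in IS than in Normal, near the 24.2% and 24.8% of all genes. The lower 3 were the syntrophin Sntb1 (-1.75, adjusted p 0.0205), dystrobrevin Dtna (-1.06, adjusted p 0.0169) and the matrix protein agrin, Agrn (-1.04, adjusted p 0.00398), and the cation channel Trpv4 was higher (3.21, adjusted p 0.00214) from a mean of 0.327 TPM in Normal. Mlc1, a membrane protein of the endfeet, was next highest at 0.21 and was not called (adjusted p 0.489). In a list of 12 other genes used to recognise astrocytes, 6 were called lower and 1 higher against the same shares of all genes, with Gpc5 (-2.65, adjusted p 0.00195), the transcription factor Nfib (-1.83, adjusted p 0.0272) and the cystine transporter Slc7a11 (-1.63, adjusted p 0.0259) lowest. Pla2g7 was higher (2.75, adjusted p 0.000816), and Sox9, a transcription factor of astrocytes, had a log2 fold change of 0.42 that was not called (adjusted p 0.107). The mean of Sox9 was 14.3 TPM in Normal, 23.8 in IC, 19.1 in IS and 24.3 in IS-HA. In IC, 0 of these 12 genes were called lower (4.64% of all genes) and 2 higher (13.0%). In IS-HA, 1 was called lower (12.1%) and 2 higher (19.5%). In the same rats all 10 genes of a reactive astrocyte list were called higher in each injured group, and Gfap, the intermediate filament of astrocytes, rose from 401 TPM to means of 3483 to 4484 TPM.

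Lists of other cell types also changed, some lower and some higher, and their part in the results was not tested. Their counts of calls in IS stand beside 24.2% lower and 24.8% higher of all genes. The 12 neuron genes, led in level by Penk, summed to 8183 and 8490 TPM in Normal, 3372 to 6555 TPM in IC, 1691 to 4172 TPM in IS and 2900 to 4528 TPM in IS-HA, and 10 of the 12 were called lower in IS than in Normal. The 8 oligodendrocyte genes, led by Mbp, summed to 17950 and 18500 TPM in Normal and 6380 to 10740 TPM in IS, with 7 of 8 called lower. The 12 microglia and macrophage genes, led by C1qb, rose from 278 and 394 TPM in Normal to 4116 to 5323 TPM in IS, 2335 to 3107 TPM in IC and 3027 to 5018 TPM in IS-HA, where replicate 2 was the highest, and 10 of the 12 were called higher in IS.

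The 6 neutrophil genes, led by S100a8, summed to 4.91 and 5.11 TPM in Normal, 83.3 to 267 TPM in IC, 494 to 696 TPM in IS and 168, 858 and 215 TPM in IS-HA replicates 1, 2 and 3. Mpo, 1 of the 6, had 0 counts in every Normal, IC and IS rat, and the 5 genes tested were all called higher in IS than in Normal. IS-HA replicate 2, the lowest of its group in 8 members, was the highest of all rats for the neutrophil list. The 7 endothelial genes, led by Cldn5, summed to 133 and 179 TPM in Normal and 216 to 259 TPM in the injected rats, with 2 called lower and 2 higher in IS. The 3 ependymal genes with Rsph1 summed to at most 22.6 TPM in any rat, with Rsph1 called higher in IS, and the 4 erythroid genes with Hbb to 54.4 and 57.8 TPM in Normal and 15.6 to 165 TPM in the injected rats.

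**Figure D5:**
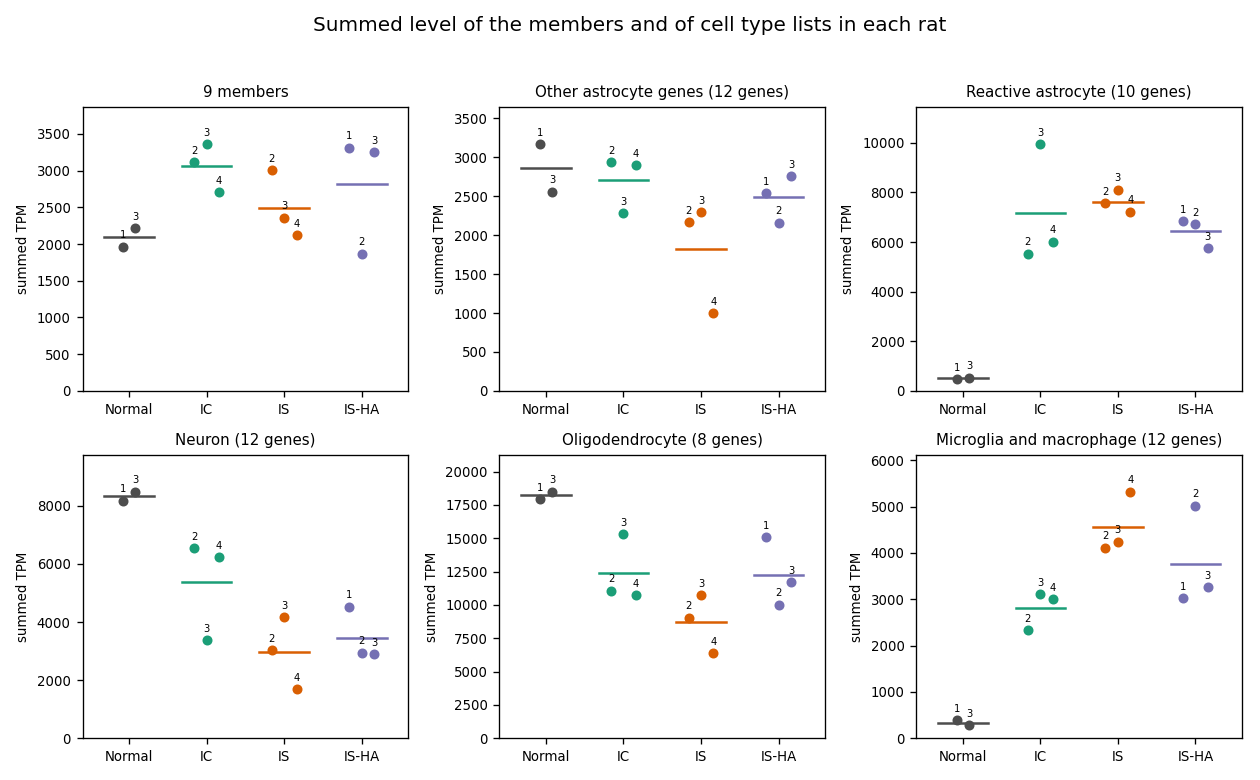
Summed TPM of the 9 members and of 5 cell type lists in each rat on linear axes from 0, with a point per rat labelled by its replicate number and a line at the group mean. Glul weighs heavily in the member sum, with 877 of 1964 TPM in Normal replicate 1 and 1707 of 2125 TPM in IS replicate 4. The sum can therefore rise where most members fall. The neuron and oligodendrocyte lists lie highest in the Normal rats, the reactive astrocyte and the microglia and macrophage lists lie lowest there, and IS replicate 4 and IS-HA replicate 2 are the 2 highest rats of the last list.

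Within the groups, IS replicate 4 was the lowest IS rat for 8 of the 9 members, all but Glul, and IC replicate 4 was the lowest IC rat for 8. When each member was scaled over the 11 rats and averaged, this member mean was 0.397 and 0.356 in the Normal rats, 0.391 to 0.552 in IC, -0.0485, -0.610 and -1.72 in IS replicates 2, 3 and 4, and 0.564, -0.636 and 0.304 in IS-HA replicates 1, 2 and 3. Slc1a3 followed the mean most closely (r = 0.974 over 11 rats). Aqp4, Gja1, Slc4a4, Gjb6, Kcnj10 and Slc1a2 had r between 0.82 and 0.92, Aldh1l1 followed it less (r = 0.580), and Glul did not follow it (r = -0.267). Each member is itself part of the mean it was compared with. Among 10620 genes of at least 10 CPM on average, the non-members most like the mean were Lurap1 (r = 0.967), Pygb, the brain form of glycogen phosphorylase (0.957), Smarca1 (0.948), Gpr17, a receptor of oligodendrocyte precursors (0.944), Asb15 (0.944), the neurotrophin receptor Ntrk2 (0.941), Taf9b (0.936) and the organic anion carrier Slco1a4 (0.930). These correlations describe the same 11 libraries, which also share their depth and their cell makeup.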

How the data were processed

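RNA of 11 rat striata was sequenced as poly(A) libraries with a stranded kit, 1 per rat. Deposited by the authors were raw counts of reads for each gene, as whole numbers, and TPM, in which the counts are scaled for gene length and library. Per the labels, the submitters' processing notes name bcl2fastq, fastp 0.20.0, FastQC 0.11.9, MultiQC, HISAT2 2.1.0, SAMtools 1.9, featureCounts of Subread, DESeq2 and the build mRatBN7.2, and the strand setting and the annotation version are not given in the sources used here. The study states 3 rats per group, and 2 Normal rats are in the files used here. Labels put each rat in its group, and none names a batch.

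Counts were filtered by filterByExpr, normalized by TMM and fitted once over the 4 groups with edgeR 4.0.16 (R 4.3.3). P-values of the quasi-likelihood F test were adjusted by Benjamini-Hochberg over 15742 genes, and SE was approximated by dividing the size of the log2 fold change by the root of F. TPM ratios were compared by exact permutation, two-sided. Against Normal, the 9 injected rats were pooled over 3 kinds of injury, because no 2 single groups can give an exact p under 0.05. The floor was 3 counts. The alternatives were other scalings and filters, DESeq2 1.42.0, limma 3.58.1 with trend on log2(TPM + 1) and with voom, only the groups compared, a replicate block and each rat left out. A correction for gene length, alone and with the block, was added after seeing the data. The fit was tested on simulated counts of 15742 genes. For IS against Normal it recovered 22% of 100 genes changed by 1 on the log2 scale and 82% of 100 changed by 2, with 3 unchanged genes called, and for IS against IC 33% and 91%, with 8 unchanged genes called.

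The members and lists were chosen with earlier results of these data known. Named were all 9 members, of 3 astrocyte lists the 3 lowest and 2 highest log2 fold changes in IS against Normal, of the other lists the gene with the highest mean TPM, and the 8 genes most like the member mean. A gene that this rule names is not reported here. Promoter windows are from RefSeq (GRCr8). Ly6c1, Ccdc153, Hba-a1, Hba-a2, Hbb-bs and Hbb-b1 of the lists were not matched by symbol. Plots were drawn with matplotlib 3.10.9.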

Additional observations from a re-analysis of the deposited data

How the results depend on the processing

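Calls for Slc1a2 and Glul in IS against Normal held in all 23 alternatives, those for Kcnj10 in 22 and for Slc4a4 in 21. Of 1035 single member values, 951 kept direction and side of the threshold, 28 passed it only under the alternative, 22 only in the reported fit, and 34 changed sign.

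Members called in IC against Normal were 2, but 1 with library size only, 1 with limma on log2(TPM + 1), 4 with voom, 6 with only the groups compared, 1 with a fold cutoff of 1 on the log2 scale, and 0 with the block and length correction. In IS against IC they were 0, but 3 with DESeq2 and 3 with voom, and in IS-HA against IS 0, but 2 with voom. The list of endfoot genes had 4 called, but 2 with at least 10 counts in every rat, 2 with the length correction and 1 with block and length correction, and the list of other astrocyte genes had 7, but 2 with block and length correction.

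The replicate block left 0 members called in IC, 2 in IS and 2 in IS-HA against Normal, 0 in IS against IC and 0 in IS-HA against IS, and 6, 1 and 1 of the other transport, endfoot and other astrocyte lists in IS against Normal. Kcnj10 then had an adjusted p of 0.0507 in IS and 0.0666 in IS-HA, and 0.0494 and 0.0711 with the length correction as well. With the block alone, Slc4a4 in IS had an edgeR adjusted p of 0.0880. The numbers share no animals. Same-numbered deviations correlated between -0.475 and 0.356, and those of different numbers between -0.469 and 0.443. With 2 or 3 rats in a group, deviations from the group mean constrain each other. These correlations therefore cannot show whether same-numbered rats shared a batch.

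Leaving out 1 rat gave 0 to 4 members called in IC, 4 to 5 in IS and 0 to 3 in IS-HA against Normal, 0 to 4 in IS against IC and 0 to 3 in IS-HA against IS. The lists had 9 to 13, 2 to 5 and 3 to 9 called. The log2 ratio differences ran from -3.04 to -1.70 (Slc1a2 to Slc1a3), -1.14 to -0.85 (Gjb6 to Gja1), -1.20 to -1.09 (Kcnj10 to Aqp4) and 2.97 to 4.35 (Glul to Slc1a2). With 1 Normal rat, or with IS against Normal only (-3.28, -1.33, -1.04 and 4.91 in that order, each with an exact p of 0.1), the design cannot pass 0.05.

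Signs turned for values that were not called in the reported fit, the farthest from 0 being Gjb6 in IC (-0.59), Aqp4 in IS (-0.54) and Slc1a3 in IS (-0.49). With the replicate block, Aqp4 in IS was 0.0143, Gja1 in IS 0.24 and Gja1 in IS-HA against IS -0.0481. With block and length correction, Aqp4 in IS was 0.37, Slc1a3 0.0054 in IS and 0.0989 in IS-HA, Gja1 0.50 in IS and -0.0817 in IS-HA against IS, and Gjb6 0.0139 in IC and 0.0526 in IS-HA. With the length correction alone, Slc1a3 in IS-HA was 0.11, Gja1 in IS 0.27 and Gjb6 in IS-HA 0.0373. Library size only, with a median over all genes of 0.14 in IC, 0.15 in IS and 0.18 in IS-HA against Normal in place of 0.00, 0.02 and 0.06, put Gja1 in IS at 0.0382. DESeq2 size factors and the DESeq2 Wald test both put Slc1a3 in IC at -0.0213, and put Aldh1l1 in IC at -0.0021 and -0.0017. At least 10 counts put Slc1a3 in IC at -0.0020, limma on TPM put Aqp4 in IS-HA at -0.0010, and voom put Glul in IS-HA against IS at 0.0479 and Aldh1l1 at -0.0016 in IC and -0.0138 in IS-HA. Leaving out 1 rat moved Slc1a3 in IC to between -0.0840 and 0.0887, Aldh1l1 to between -0.0594 and 0.0934 in IC and -0.0331 and 0.27 in IS-HA, Aqp4 in IS-HA to between -0.34 and 0.49, Gja1 to between -0.30 and 0.12 in IS, -0.10 and 0.31 in IS-HA and -0.0008 and 0.42 in IS-HA against IS, and Glul in IS-HA against IS to between -0.15 and 0.0182. The cause was not tested.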
